A study of Drosophila melanogaster with 3 samples.

Results

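The nuclear genes for the subunits of the respiratory chain and of ATP synthase were examined for binding of Deadpan in whole fly embryos. The set held all protein-coding nuclear genes of genome release 6 whose symbols start with ND- (complex I, NADH dehydrogenase), UQCR- (complex III, the cytochrome bc1 complex), COX and a digit (complex IV, cytochrome c oxidase) or ATPsyn (complex V, ATP synthase). There were 80 such genes among 13945 protein-coding genes on the main chromosome arms: 40 of complex I, 9 of complex III, 16 of complex IV and 15 of complex V. Of these, 21 carry a symbol that ends in L, or in L and a digit, most of them beside a gene of the same stem name, while the main gene of 4 is named otherwise (levy, cype and sun). They are called L-named copies here, and the other 59 genes main forms. ND-MNLL counted as a main form, because its letters spell the subunit.

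The series is a ChIP-seq experiment on flies of the strain dpn-MiMIC-GFP. In this strain an eGFP exon inserted into an intron of dpn yields a Deadpan fusion protein, which was precipitated with an antibody against GFP. Embryos of 0 to 24 hours and of both sexes were pooled, so neuroblasts, in which Deadpan is best known, made up only part of the chromatin, and no tissue can be told from another. The study holds 1 group with 3 biological replicates and no control library among its samples, and the number of reads behind the lists is unknown. All values below therefore set genes beside other genes, and no comparison between conditions exists.

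Deadpan, a repressor with a basic helix-loop-helix domain, belongs to the Hes family, maintains neural stem cells and takes part in sex determination. The respiratory chain passes electrons from NADH and other donors through complexes I, III and IV to oxygen and pumps protons across the inner mitochondrial membrane, and ATP synthase uses the returning protons to make ATP. Most subunits are encoded in the nucleus, made in the cytosol and imported. Flies carry duplicates of many of these nuclear genes, and such duplicates are known as a class for expression in the testis. Whether each of the 21 L-named copies has that expression was not measured here.

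Upstream sequences of 6 members are printed first, because they show the promoter motifs that the counts further down refer to beside members with and without a peak. Each is the 150 bases before the most upstream start site, 5′ to 3′ on the strand of the gene, from the NCBI RefSeq sequence of release 6 (dm6), and holds no annotated exon. Capitals mark TATCGA, the core of the element of the promoter factor DREF (TATCGATA), and GGTCACACT, known as promoter Motif 1, on either strand, so a site on the other strand reads TCGATA. ND-51 (chr2L:6062758-6062907, minus strand) and ND-B17 (chr2L:15751079-15751228, minus strand) had a peak above the threshold used below. ND-B14.5A (chrX:2172376-2172525, plus strand) and COX4 (chr2L:19958563-19958712, plus strand) had a weaker entry only. The copies ND-24L (chr3L:17320812-17320961, minus strand) and ATPsynepsilonL (chr3R:10121623-10121772, plus strand) had none in the pooled list.
ND-51: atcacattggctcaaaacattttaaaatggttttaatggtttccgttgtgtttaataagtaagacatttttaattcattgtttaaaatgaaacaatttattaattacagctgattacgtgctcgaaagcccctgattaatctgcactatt
ND-B17: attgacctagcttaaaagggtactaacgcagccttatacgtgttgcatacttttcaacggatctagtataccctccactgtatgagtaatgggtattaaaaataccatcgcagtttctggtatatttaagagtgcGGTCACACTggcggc
ND-B14.5A: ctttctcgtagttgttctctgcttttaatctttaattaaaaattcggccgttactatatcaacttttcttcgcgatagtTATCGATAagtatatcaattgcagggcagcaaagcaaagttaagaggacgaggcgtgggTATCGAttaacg
COX4: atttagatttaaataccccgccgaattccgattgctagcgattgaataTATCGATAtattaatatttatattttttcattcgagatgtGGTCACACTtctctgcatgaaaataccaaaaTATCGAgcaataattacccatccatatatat
ND-24L: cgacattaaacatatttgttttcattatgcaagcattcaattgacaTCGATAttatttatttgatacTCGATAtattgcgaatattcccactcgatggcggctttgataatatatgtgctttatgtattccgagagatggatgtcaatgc
ATPsynepsilonL: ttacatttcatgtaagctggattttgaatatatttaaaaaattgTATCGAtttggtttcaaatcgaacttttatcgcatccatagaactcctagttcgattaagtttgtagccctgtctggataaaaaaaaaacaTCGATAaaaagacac
The stretch of ND-51, whose peak is among the strongest of the members, holds neither motif, and its summit lies 120 bases before the start. ND-B17 holds GGTCACACT from 15 to 7 bases before the start, with the summit at 129. In ND-B14.5A the summit, 67 bases before the start, falls inside a TATCGATA that spans 71 to 64 bases before it, and yet its entry did not reach the threshold. COX4 holds both motifs within 102 bases of its start. ND-24L and ATPsynepsilonL hold TATCGA at 2 places each.

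The first question was how many of the genes had a Deadpan peak at a start site. A gene was scored by its strongest entry whose summit lay at most 1000 bp from a start site of that gene, ranked by the peak caller's signal within a list, rank 1 being the strongest. The threshold is membership in the authors' list of 5164 peaks that met their cutoff on the irreproducible discovery rate (IDR), which keeps regions ranked alike between replicates. These peaks are the first 5164 entries of the list of 30000 entries called on the pooled replicates, so an IDR peak here means a pooled rank of 5164 or better. An IDR peak lay at 0 of the 21 L-named copies and at 24 of the 59 main forms (40.7%), against 27.9% of all protein-coding genes (3891 of 13945). The 24 genes had 24 distinct peaks. Over all 80 genes the share was 30.0%, close to that of all genes.

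The main forms differed from other genes less at the top of the list than in its middle. Among the first 500 pooled entries were those of 2 main forms (3.39%), against 3.86% of all genes, and among the first 1000 those of 5 (8.47%), against 7.02%. Ranks 1001 to 5164 held 19 main forms (32.2%, against 20.9% of all genes), and ranks 5165 to 10000 held 20 (33.9%, against 13.5%). The first 10000 entries thus included 44 main forms (74.6%) and 41.4% of all genes. With any pooled entry counted there were 9 copies (42.9%) and 57 main forms (96.6%), against 63.1% of all genes. Most main forms therefore had an entry of middling rank, and 2 had none. The median pooled rank of those with an entry was 16783 for the copies and 5778 for the main forms, against 6295.5 for the 8796 genes in all that had one. These rank classes were chosen after the ranks were seen.

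**Figure D1:**
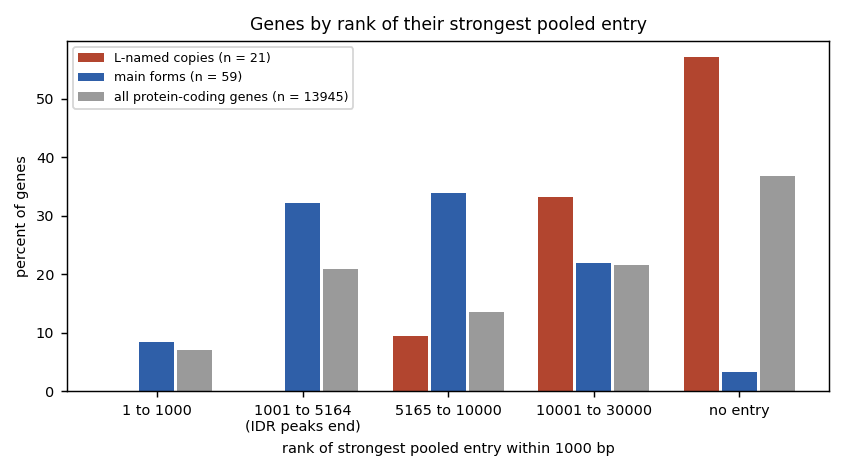
Share of genes (percent, vertical axis) in each class of pooled rank of the strongest entry within 1000 bp of a start site, for 21 L-named copies, 59 main forms and 13945 protein-coding genes. Main forms exceed all genes most at ranks 5165 to 10000 (33.9% against 13.5%), and 57.1% of the copies, 3.39% of the main forms and 36.9% of all genes have no entry.

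The replicates were read through as many of their own strongest entries as the IDR list holds, 5164 each. An entry among them lay at 1, 0 and 1 copies and at 27, 23 and 25 main forms in replicates 1, 2 and 3, against 28.2%, 27.0% and 27.4% of all genes. As a mean this was 3.17% ± 2.75 of the copies and 42.4% ± 3.39 of the main forms, against 27.5% ± 0.612 of all genes (SD, n = 3 replicates). The main forms lay above all genes in each replicate, by 14.9 ± 2.79 percentage points, and the copies below the main forms in each, by a difference of -39.2 ± 1.71 points (SD, n = 3). Both differences exceeded the spread between replicates, but an exact sign-flip test over 3 replicates cannot give a two-sided p below 0.250, which is the value for each. The pooled and IDR lists were made from the same replicates, and the replicates therefore show spread and are no separate evidence.

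**Figure D2:**
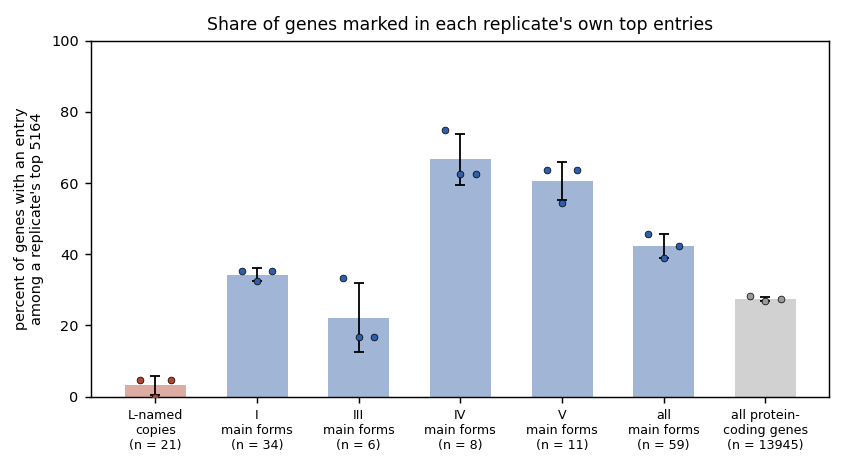
Percent of genes with an entry among a replicate's own top 5164 (vertical axis), by gene set. Points are the 3 replicates, bars the mean and error bars the SD. The copies lie at or below 4.76% in every replicate, the complex IV main forms at or above 62.5% and all protein-coding genes between 27.0% and 28.2%.

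Of the 24 main forms with an IDR peak, 19 were among the own top entries of all 3 replicates, 4 in 2 of them and 1, ND-20, in 1. Of the 35 without, 28 were in the top entries of no replicate, 5 in those of 1 and 2, ATPsynbeta and ND-23, in those of 2. The ranks near the threshold are close: ND-MNLL (4573) and ND-13B (4640) were the last members inside, and UQCR-C2 (5384) and ATPsynbeta (5411) the first outside.

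Complex I takes electrons from NADH through a flavin and a chain of iron-sulfur clusters to ubiquinone. Of its 34 main forms 12 had an IDR peak (35.3%), against 27.9% of all genes, and 33 had some pooled entry. The strongest belonged to ND-ASHI (FBgn0029888) and ND-MWFE, accessory subunits of the membrane arm. ND-ASHI had rank 262 in the pooled list and ranks 247, 233 and 297 in replicates 1, 2 and 3, with the peak on chromosome X from 6679190 to 6679519 and the summit 231 bp upstream of its start. ND-MWFE had rank 295 and ranks 301, 295 and 277 (chromosome 2R, 13158339 to 13158664, summit 151 bp upstream). Both held their place in every replicate within a narrow range.

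ND-51, the subunit that binds NADH and its flavin cofactor, had rank 684 and ranks 608, 794 and 641 in the replicates (chromosome 2L, 6062747 to 6062986). ND-24, its iron-sulfur partner in the NADH-oxidising module, had rank 688 and ranks 877, 848 and 483, with the summit 65 bp inside the gene. These partners lie on different chromosomes and had almost the same pooled rank. ND-42, another accessory subunit, followed at 1476 with ranks 1057, 1678 and 1906. The remaining complex I peaks were those of ND-SGDH (2305), ND-B22 (3230), ND-B18 (3658), ND-B17 (3836), ND-20 (4285), ND-MNLL and ND-13B.

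Among the 7 conserved core subunits, which carry the cofactors, 3 had an IDR peak (ND-51, ND-24 and ND-20), and among the 27 accessory subunits 9, a grouping by textbook role made after the data were seen. With 27.9% of all genes bound, the accessory count is near the background and the core group is too small to set beside it. ND-20, which binds the last iron-sulfur cluster before ubiquinone, varied widely between replicates, with ranks of 8560, 2438 and 6018 in replicates 1, 2 and 3. Only replicate 2 placed it inside its own top entries. The other core subunits had weaker entries, at pooled ranks of 8304 for ND-23, 9468 for ND-75, 10781 for ND-30 and 16627 for ND-49. ND-23, an iron-sulfur subunit, was nevertheless ranked 4616 and 4611 in replicates 2 and 3, against 8268 in replicate 1.

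Of the accessory complex I genes below the threshold, ND-B14.5A (5492), ND-B14.5B (5778), ND-B17.2 (6439), ND-15 (6508), ND-18 (7063), ND-19 (7724), ND-B12 (7845), ND-B15 (8415) and ND-39 (9866) had pooled entries within the first 10000. ND-B8 (10371), ND-PDSW (11587), ND-B14.7 (14804), ND-AGGG (14831), ND-B14 (16978), ND-13A (17218), ND-MLRQ (20120) and ND-ACP (21190) lay further down. ND-ACP is the mitochondrial acyl carrier protein, and it and ND-AGGG had an entry in replicate 3 only. ND-B16.6 had no pooled entry, and its entries in replicates 1 and 2 stood at ranks 24863 and 24798.

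Complex III passes electrons from ubiquinol to cytochrome c. Of its 6 main forms 1 had an IDR peak (16.7%), against 27.9% of all genes. This was UQCR-14 (FBgn0030733), a small subunit, with rank 2734 in the pooled list and ranks 2767, 5123 and 2054 in replicates 1, 2 and 3. Its summit lay 21 bp inside the gene, and no other gene starts within 1000 bp of it. UQCR-C2 and UQCR-C1, the core proteins, had pooled ranks of 5384 and 8786. UQCR-C2 was ranked 4160, 6263 and 6196 in the replicates, and UQCR-C1 5434, 12459 and 23737. UQCR-6.4 (7987) and UQCR-Q (14671) had weaker entries. UQCR-11 had none in the pooled list, although replicate 2 placed one at rank 6208. With 6 genes, 1 further gene above the threshold would change the share by a large step.

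Complex IV passes electrons from cytochrome c to oxygen. Of its 8 main forms 5 had an IDR peak (62.5%), against 27.9% of all genes, with a median pooled rank of 1900.5. Its place above complex V, and its distance from complex I, depend on how a peak is assigned. When the region had to overlap a start site it had 3 of 8 main forms, against 6 of 11 in complex V, 9 of 34 in complex I and 16.9% of all genes. When the gene's own start had to be nearest it had 3 of 8, against 5 of 11, 10 of 34 and 20.1%. COX5A (FBgn0019624) came first with rank 722 and ranks 761, 720 and 616 in the replicates, its peak lying on chromosome 3R from 11819431 to 11819643. COX6B had rank 1139 (810, 1948 and 1092), COX5B 1167 (799, 1854 and 1130) and COX7B 1441 (1518, 1868 and 1470). COX8, a small membrane subunit, had rank 2360 (3856, 2422 and 1661). All 5 were in the top entries of all 3 replicates. The others were COX7A (6400), COX7C (8803) and COX4 (17767), of which COX7A alone reached the own top entries of a replicate, at rank 5095 in replicate 1. COX4, the largest nuclear-encoded subunit of the oxidase, had no entry in replicate 1.

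ATP synthase consists of a catalytic head and central stalk, a proton-driven ring of c subunits in the membrane, and a peripheral stalk that holds the head in place. Of its 11 main forms 6 had an IDR peak (54.5%), against 27.9% of all genes, and all 6 were ring, peripheral stalk or membrane subunits. ATPsynE (FBgn0038224), subunit e of the membrane part, had rank 1524 in the pooled list and ranks 1854, 1439 and 1220 in the replicates, with the peak on chromosome 3R from 14326903 to 14327096. ATPsynF, subunit f, had rank 2191 (1853, 2603 and 2450), and ATPsynC, the ring subunit, had rank 2461 (2622, 1657 and 3345). All 3 were among the top entries of every replicate. The peripheral stalk genes ATPsynO (3525), ATPsynD (4417) and ATPsynCF6 (4448) followed. ATPsynB, which encodes the stalk's long membrane-anchored subunit, and ATPsynG were the ring, stalk or membrane subunits without an IDR peak, at pooled ranks of 5684 and 7907.

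The 3 genes of the head and central stalk that the symbols include had no IDR peak. ATPsynbeta, the catalytic subunit, had pooled rank 5411 and ranks 4706, 10104 and 4267 in replicates 1, 2 and 3, and its summit lay 473 bp upstream of its start, 36 bp from that of CG11076. ATPsyngamma, the rotor shaft, had rank 7058 and ATPsyndelta 23377, the lowest of all main forms with a pooled entry. The alpha subunit is encoded by blw, whose symbol lies outside the rule, and blw had rank 466 with ranks 428, 517 and 486 in the replicates. The head as a whole was thus not without a peak.

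Between the complexes, the share of main forms in the replicates' own top entries was 34.3% ± 1.70 for complex I, 22.2% ± 9.62 for complex III, 66.7% ± 7.22 for complex IV and 60.6% ± 5.25 for complex V (SD, n = 3 replicates). Complex I lay below complex IV by a difference of -32.4 ± 6.54 points and below complex V by one of -26.3 ± 3.55 points, in each replicate (SD, n = 3; exact sign-flip p = 0.250 for both, the smallest possible). With any entry of a replicate counted, these differences were -2.70 ± 8.20 and -0.802 ± 4.64 points, and both changed sign between replicates (SD, n = 3). The gap thus holds for the top entries only. Complex IV and complex V differed by 6.06 ± 6.46 points and changed order in 1 replicate, so these complexes could not be told apart. The replicates measure spread between libraries over a fixed set of 8 to 34 genes, and the order of complexes says nothing about other genes.

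**Figure D3:**
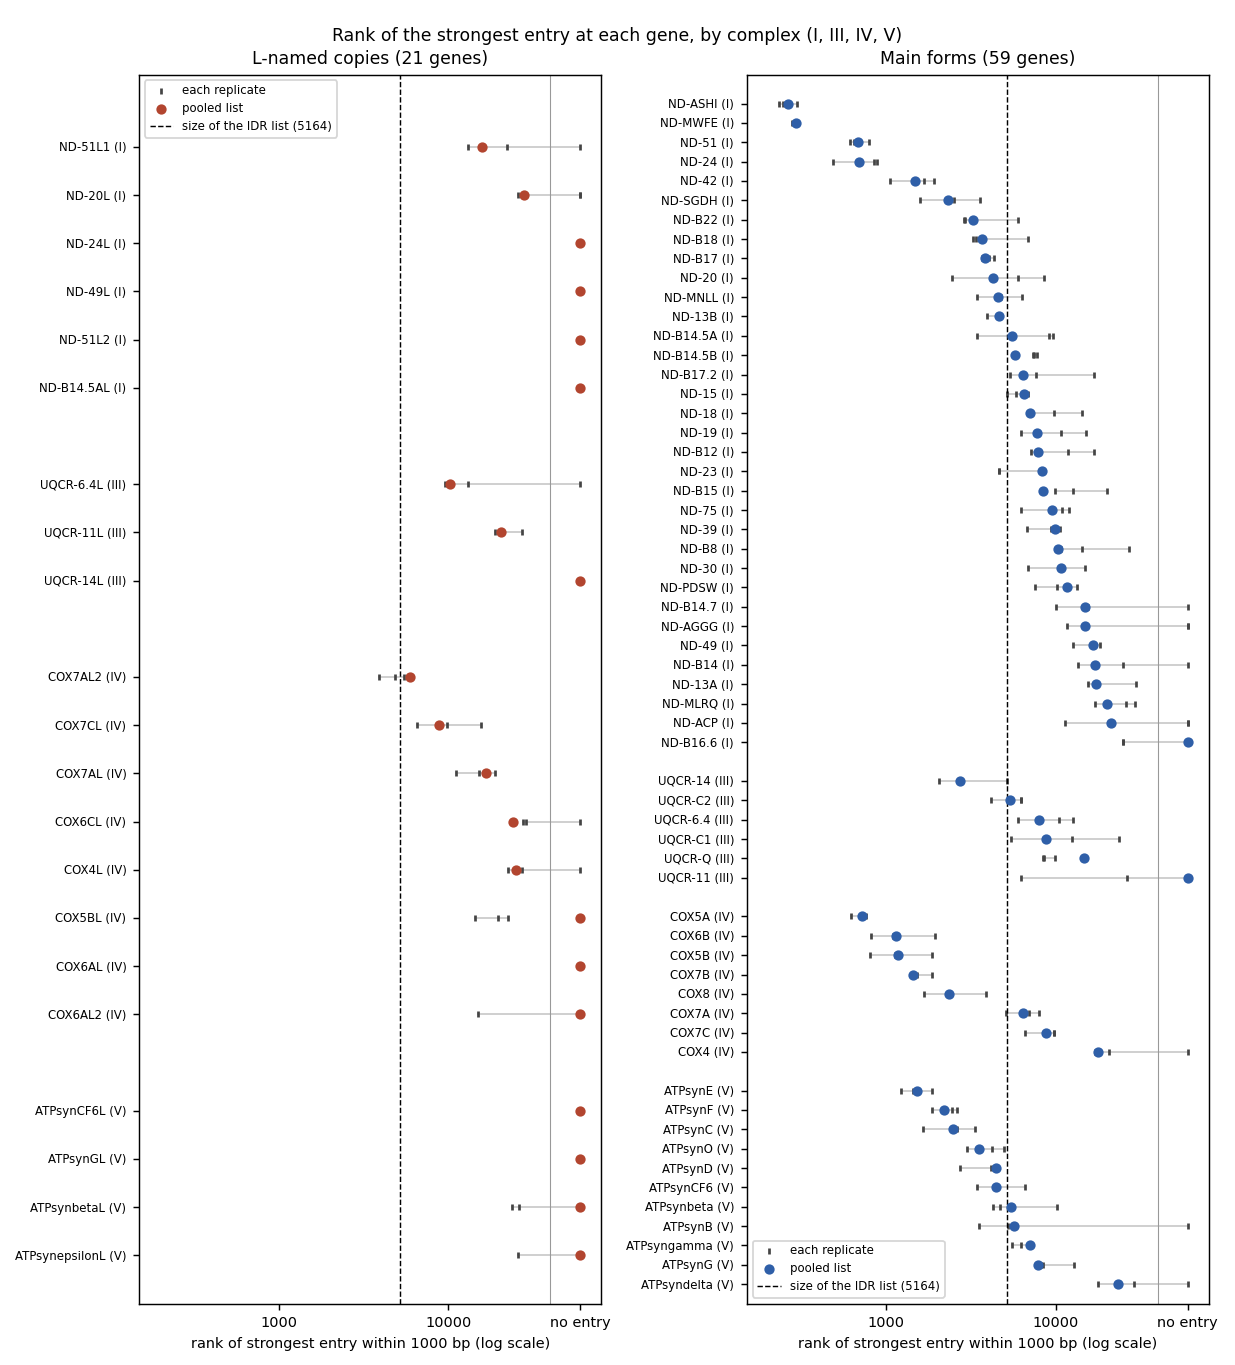
Rank of the strongest entry within 1000 bp of a start site (horizontal axis, log scale, rank 1 at the left) for each L-named copy (left panel) and main form (right panel), grouped by complex. Dots are the pooled list, ticks the 3 replicates and the dashed line rank 5164. The 24 dots left of the line are all main forms, from ND-ASHI at 262 to ND-13B at 4640.

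The second question concerned the L-named copies. Not one of 21 had an IDR peak. The nearest to the threshold was COX7AL2, with pooled rank 5962 and ranks 4884, 5472 and 3920 in replicates 1, 2 and 3, and it was the copy counted in the own top entries of replicates 1 and 3. COX7CL followed at 8803 and UQCR-6.4L at 10319. Those of ND-51L1 (15814), COX7AL (16783), UQCR-11L (20559), COX6CL (24020), COX4L (25213) and ND-20L (28057) lay in the weaker part of the list. The pooled list held no entry for the other 12 copies. Of these, COX5BL (22580, 19801 and 14414 in replicates 1, 2 and 3) had an entry in every replicate, ATPsynbetaL in replicates 2 and 3 (23836 and 26335), and COX6AL2 (14970) and ATPsynepsilonL (25810) in replicate 2. The remaining 8, ND-24L, ND-49L, ND-51L2, ND-B14.5AL, UQCR-14L, COX6AL, ATPsynCF6L and ATPsynGL, had no entry in any list.

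Each copy was set beside the gene of the same subunit, which gave 21 pairs with 18 different main genes. For COX6AL and COX6AL2 that gene is levy, for COX6CL it is cype and for ATPsynepsilonL it is sun, all named outside the symbol rule. The copy had the stronger pooled entry in 2 pairs and the main gene in 18, and in 1 pair both genes took the same entry. The counts were 2, 2 and 3 pairs for the copy and 18, 18 and 17 for the main gene in replicates 1, 2 and 3. The main gene was thus ahead in at least 17 of the 21 pairs in each list. Some of these leads rest on weak entries. Beside ATPsynepsilonL, sun stood at pooled rank 28318, with an entry in replicate 1 only (10323), while the copy had one in replicate 2 (25810). COX4 (17767) led COX4L (25213), but in replicate 1 only the copy had an entry (22605). Wide gaps were those of ND-51L1 (15814) and ND-51L2 (no entry) beside ND-51 (684), and of ND-24L (no entry) beside ND-24 (688). COX5BL, COX6AL, COX6AL2, UQCR-14L and ATPsynCF6L, with no pooled entry, stood beside IDR peaks at COX5B (1167), levy (1782), UQCR-14 (2734) and ATPsynCF6 (4448). The summit of COX5B lies 275 bp from its own start and 23 bp from that of IFT52. That of levy lies 206 bp from its own start and 45 bp from that of wmd. For UQCR-14 and ATPsynCF6 the own start is the nearest. ND-20L at 28057 stood beside ND-20 at 4285.

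In the pair COX7AL2 and COX7A the copy was ahead, at 5962 against 6400 in the pooled list. The copy had ranks 4884, 5472 and 3920 in replicates 1, 2 and 3, against 5095, 7000 and 7965 for COX7A, so it led in each replicate. UQCR-11L (20559) was ahead of UQCR-11 only in that UQCR-11 had no pooled entry, and in replicates 1 and 2 UQCR-11 was the stronger. COX7CL starts downstream of COX7C, and both were scored by 1 entry whose summit lies 523 bp upstream of the copy and 344 bp inside COX7C. COX5BL also lies downstream of its main form COX5B, on chromosome 2L, and yet has no pooled entry within 1000 bp.

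Copies and main forms also differed in where their entries lay. The 9 pooled entries of copies had summits at a median of 591 bp from the start (222 to 918), and 0 lay within 150 bp. The 24 IDR peaks of main forms had summits at a median of 56.5 bp (5 to 302), and 20 of them (83.3%) lay within 150 bp, against a median of 144 bp and 51.7% for all 3891 genes with an IDR peak. Upstream of the start lay 19 of the 24 (79.2%), a share near that of all such genes (83.1%). The closest were ATPsynC, 5 bp inside the gene, ATPsynO, 14 bp inside, and UQCR-14, 21 bp inside, and the farthest was ND-42, 302 bp upstream. Entries of copies and IDR peaks of main forms differ in rank as well as in gene, and whether the distance goes with the rank was not tested. With all pooled entries counted, the median distance was 120 bp for the 57 main forms, against 188 bp for the 8796 genes in all.

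**Figure D4:**
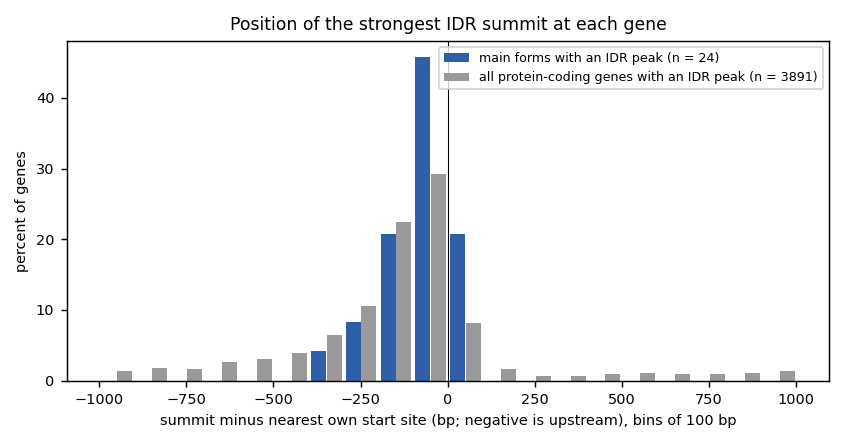
Summit position relative to the nearest start site of the gene (horizontal axis, bp, negative is upstream, bins of 100 bp) for the 24 main forms and all 3891 genes with an IDR peak, as percent of each set (vertical axis). The bin just upstream of the start holds 45.8% of the main forms and 29.2% of all genes, and no main form lies beyond 302 bp.

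The fly genome is dense, and a peak between divergent genes can belong to either. Another protein-coding start lay within 1000 bp of the summit for 18 of the 24 bound main forms (75.0%), against 63.2% of all bound genes. The member's own start was the nearest for 16, another gene's for 6, and 2 were ties. The 5 strongest such peaks were those of ND-ASHI, ND-MWFE, ND-51, ND-24 and COX5A. The summit of ND-ASHI lies 291 bp from the start of Fum1, a fumarase gene, and that of ND-MWFE lies 70 bp from TppII, a peptidase gene, which is nearer than its own start at 151 bp. That of ND-51 lies 112 bp from CG13994 and 120 bp from its own start, that of ND-24 107 bp from corolla, and that of COX5A 120 bp from glo. Some summits lie near the start of another gene of mitochondrial function, such as that of ND-42 near Cchl, the cytochrome c heme lyase (73 bp). That of ATPsynD lies near mRpL55, a mitochondrial ribosomal protein gene (44 bp). Others do not, such as that of COX8 near VhaM9.7-b, a subunit of the vacuolar ATPase (356 bp). Below the threshold, the summit of ND-PDSW lies near msl-2, a dosage compensation gene (14 bp). Whether any of these pairs share a promoter was not tested.

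Neighbours and start sites were unevenly spread between the sets. A protein-coding start of another gene lay within 1000 bp of a start of 6 copies (28.6%) and of 42 main forms (71.2%), against 42.9% of all genes. Among genes with such a neighbour, an IDR peak was present at 0 of 6 copies and at 18 of 42 main forms (42.9%), against 43.5% of all genes. Among genes without one it was present at 0 of 15 copies and at 6 of 17 main forms (35.3%), against 16.2% of all genes. In the replicates' own top entries, genes without a neighbour gave 35.3% ± 5.88 for the main forms, against 16.0% ± 0.552 for all genes, and genes with a neighbour gave 45.2% ± 4.12, against 42.8% ± 0.739 (SD, n = 3). The margin of the main forms over other genes thus exceeded the spread between replicates in the group without a neighbour, where they number 17, and did not in the group with one. The 6 bound ones there are ND-20, ND-B17, ND-B22, UQCR-14, ATPsynC and ATPsynO. Similarly, 19 copies and 27 main forms have a single annotated start site, and of these 0 copies and 10 main forms (37.0%) had an IDR peak, against 22.3% of all genes with a single site. With 2 or more sites it was 14 of 32 main forms (43.8%), against 43.5% of all genes. How much of the difference between main forms and all genes goes with neighbours and start sites was not tested. The copies had no IDR peak in any of these classes, of which the largest held 19 of them.

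On the X chromosome, 7 of 12 main forms had an IDR peak (58.3%), with 7, 5 and 6 in the own top entries of replicates 1, 2 and 3. Elsewhere it was 17 of 47 (36.2%), with 20, 18 and 19. Of all genes, 27.6% had one on X and 28.0% elsewhere. The 7 were ND-ASHI, ND-24, ND-B18, ND-20, ND-MNLL, UQCR-14 and COX6B. No copy lies on X. The split by chromosome was made after the data were seen, and it rests on 12 genes. The arm 2R held 2 bound members of 15 (13.3%, 6 of the 15 being L-named copies), against 27.2% of all genes there. The 2 members on chromosome 4, ATPsynbeta and ND-49, had no IDR peak, against 22.5% of all genes there.

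The third question was which known motifs the promoters share. Motifs were searched on both strands of 300 bases, from 250 before to 50 after the most upstream start, in the release 6 sequence. TATCGA was present in 4 of 21 copies (19.0%) and 21 of 59 main forms (35.6%), against 27.7% of all promoters. Its longer form TATCGATA, which contains it, was found in 0 copies and 9 main forms (15.3%), against 9.36%. Across all genes TATCGA went with a peak: 39.4% of genes with an IDR peak held it and 23.2% of those without. Among the main forms the shares were 33.3% with a peak (8 of 24) and 37.1% without (13 of 35). The sequences of ND-B14.5A and COX4 above are of the second kind. Within 50 bp of the summit, TATCGA was present at 4 of 24 main-form IDR peaks (16.7%) and at 16.0% of the IDR peaks of all genes.

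GGTCACACT was found in 1 copy, COX7AL (4.76%), and in 14 main forms (23.7%), against 6.05% of all promoters. The main forms with an IDR peak held it in 7 of 24 (29.2%) and those without in 7 of 35 (20.0%), against 9.53% and 4.69% of all genes with and without one. By complex it was present in 7 of 34 main forms of complex I (20.6%), 1 of 6 of complex III, 4 of 8 of complex IV and 2 of 11 of complex V (18.2%). The 4 of complex IV were COX5A, COX5B, COX7B and COX4, of which COX4 had no IDR peak. Within 50 bp of the summit it was at 0 of 24 main-form IDR peaks, against 2.26% of those of all genes. At so low a share, 24 peaks are too few to set 0 apart from it. The site of ATPsynD lay 51.0 bp from its summit, just outside the stretch searched. In ND-MWFE and COX7B the motif lies just inside the gene, 179 and 160 bp from the summit.

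TATAAA was present in 6 copies (28.6%) and 37 main forms (62.7%), against 45.8% of all promoters, and its share was nearly the same in main forms with (62.5%) and without an IDR peak (62.9%). Sites known for Hes proteins were counted in the same way. The E-box CACGTG was found in 2 copies (9.52%) and 2 main forms (3.39%), against 4.20% of all promoters, and at 0 of 24 main-form summits. The form CACGCG was found in 0 copies and 4 main forms (6.78%), against 6.12%, and 3 of the 4 were complex IV genes (COX5A, COX6B and COX7C). The N-box CACNAG was found in 9 copies (42.9%) and 19 main forms (32.2%), against 29.7%. GAGAGA, the site of GAGA factor, was found in 2 copies and in 2 main forms (3.39%), against 12.3% of all promoters, and CAGGTA, the core site of the early activator Zelda, in 1 copy and 4 main forms (6.78%), against 6.24%. The nuclear respiratory gene element, described upstream of fly genes of oxidative phosphorylation, had 0 matches in the strict form searched among the members, and 22 among all promoters (0.158%). A match is a string of letters in a fixed window. For a gene with distant alternative starts, such as ND-15, the window can be far from the peak.

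**Figure D5:**
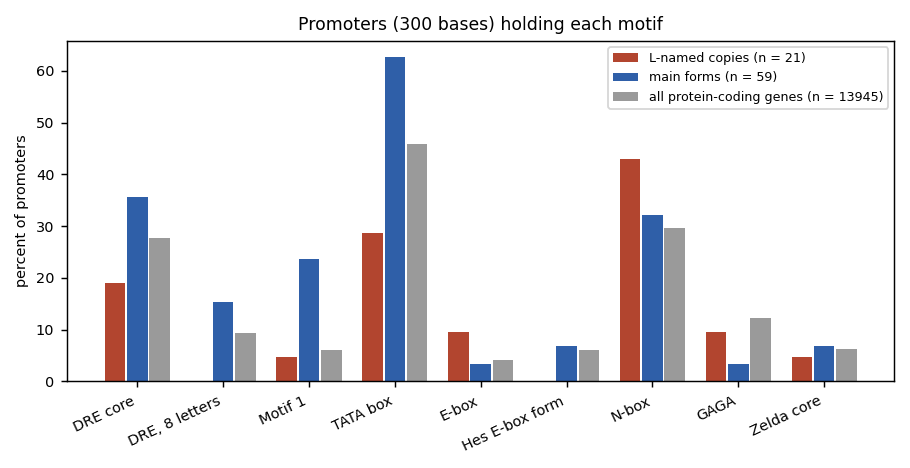
Percent of promoters (300 bases around the most upstream start, both strands) that hold each motif, for 21 L-named copies, 59 main forms and 13945 protein-coding genes. Main forms exceed all genes most for Motif 1 (23.7% against 6.05%) and for TATAAA, labelled TATA box (62.7% against 45.8%). They fall below them for the GAGA site (3.39% against 12.3%). TATAAA was counted at any place in the 300 bases, so a match need not be a TATA box.

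Respiratory genes whose names lie outside the symbol rule were read as a list of 42, of which 39 matched the annotation, 2 of them through a synonym, and Cox15, Ecsit and Foxred1 matched none. Of the 39, 17 had an IDR peak (43.6%) and 38 a pooled entry (97.4%), against 27.9% and 63.1% of all protein-coding genes. In replicates 1, 2 and 3 the own top entries marked 18, 16 and 19 of them. The groups within the list are small (8 to 14 genes), and their counts are to be read against the same 27.9%. Among subunits, 8 of 14 had an IDR peak: blw (466), Cyt-c1L (1615), levy (1782), ox of complex III (2770), SdhC (3532), RFeSP, the Rieske iron-sulfur protein (3642), SdhD (3707) and SdhA (3780). SdhA encodes the flavoprotein of succinate dehydrogenase (complex II), and its summit lies 828 bp upstream, 27 bp from the start of cer.

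Among electron carriers and transporters, 3 of 8 had an IDR peak, namely Cyt-c-d (279), Cyt-c-p (1597) and Etf-QO (2613). Of the assembly factors it was 3 of the 9 matched. CIA30, a complex I assembly factor, had rank 39 in the pooled list and ranks 37, 39 and 39 in the replicates, stronger than every subunit gene read here. Its summit lies 113 bp upstream of its start and 107 bp from that of CG7601. Cox17, a copper chaperone of complex IV, stood at 1290 and Coa8 at 2119. Among regulators and mitochondrial DNA factors 3 of 8 had an IDR peak, namely mtSSB, the single-stranded DNA binding protein of mitochondria (555), PolrMT, their RNA polymerase (2772), and ewg (4731), the fly relative of nuclear respiratory factor. The peak of ewg was in the own top entries of no replicate (ranks 5192, 5768 and 6472 in replicates 1, 2 and 3).

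This list also holds duplicates that do not follow the pattern of the L-named copies above. Cyt-c1L had rank 1615 (1673, 1466 and 1943 in replicates 1, 2 and 3), while Cyt-c1, its main form and a complex III subunit, had 22159. Cyt-c-d, the cytochrome c gene known for its part in spermatogenesis, had rank 279 (288, 304 and 273), and Cyt-c-p, the somatic one, had 1597 (1007, 1893 and 1723). The summit of Cyt-c-d lies 393 bp inside it and 159 bp from the start of CG31808, while no other gene starts within 1000 bp of the summit of Cyt-c1L, 661 bp upstream. SdhAL had no entry in any list and SdhBL stood at 22959, beside SdhA at 3780 and SdhB at 15729. The absence of IDR peaks among the 21 copies is therefore a statement about these symbols and not about every duplicate of a respiratory gene.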

How the data were processed

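Only the lists for the dm6 build entered, and the dm3 lists were not used here. The authors called regions per replicate and on pooled replicates, each with a control alignment, to serve as input for IDR, per the deposited lists of files. Neither aligner nor peak caller is given in the sources used here. In the deposited lists, column 7 is the caller's signal value of a region and served only to rank entries within a list. Column 9 is the −log10 of a q-value in the deposited lists and was not used to rank. Column 10 of the deposited lists, in another unit, is the summit's offset in bp from the region start. Without read counts in the lists, depth and counting error are unknown for every sample. Of the region ends, 0 lay beyond the ends of the arms in the reference.

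With Python 3.11.15 and NumPy 2.4.6, each gene was scored by its strongest entry with the summit (start plus column 10) within 1000 bp of any start site in Ensembl release 115, positions counted from 1. A replicate's own top entries are its first 5164. Promoter sequence came from the NCBI RefSeq release 6 genome. The scoring was checked on simulated lists. Shares and medians are descriptions. Only an exact two-sided sign-flip test over 3 replicates was applied to differences between sets, without adjustment since it cannot give a p below 0.250.

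The genes, lists, motifs and comparisons were chosen with earlier results of these data known. Genes were named by a rule: in each complex the 5 with the strongest pooled entry, every L-named copy, every main form without an IDR peak, the 2 members on either side of the threshold, the 5 strongest members sharing a peak with a neighbour, and each listed pathway gene with an IDR peak. Other genes of the set and the modules of the complexes were named after their values were seen. Alternatives changed the window, the list, the assignment of peaks, the motif and its window, and left out each replicate by keeping the peaks matched within 150 bp in both others.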

Additional observations from a re-analysis of the deposited data

How the results depend on the processing

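Of the alternatives, 81 values stayed within their limits (a count within 1.5 times, another value within 1 SD over replicates), 32 moved and 0 reversed. Counts, ranks and shares cannot change sign, and these classes do not follow the order against all genes. Complex I (40 genes) had 30.0%, against 27.9% of all genes, but 20.0% against 22.5% without replicate 1. Complex IV (16 genes) had 31.2% against 27.9%, but 18.8% against 20.1% when the gene's own start had to be nearest. With the first 2500 IDR peaks, 14 members had a peak (17.5%, all main forms), against 15.7% of all genes. There were 6 in complex I (15.0% of its 40 genes, copies included), 0 in complex III, 3 in complex V and 9 other pathway genes. With the first 10000 pooled entries these counts were 46 (2 copies and 44 main forms), 23, 4, 10 and 27, and 9 in complex IV, against 41.4% of all genes. Longer or shorter lists raise or lower such counts by construction. A window of 2000 bp gave 3 genes in complex III, 8 in complex IV and 2 copies, with median pooled ranks of 5684 for members and 4852.5 for main forms. Complex IV had 3 genes (18.8%), in place of 5, both when the region had to overlap a start site and when the gene's own start had to be nearest. Complex V, with 6 (40.0%) and 5 (33.3%), then had the larger share. Of all genes, 16.9% and 20.1% had a peak under these rules. The other pathway genes then had 10 (25.6%) and 11 (28.2%), in place of 17. With the own start nearest the median ranks were 7976.5 for members and 7779 for main forms. In alternatives chosen after seeing the data, genes without a neighbouring start gave 6 of 32 members and 6 of 17 main forms, against 16.2% of all such genes. Genes with a single start site gave 10 of 27 main forms, against 22.3% of all such genes. The mean share of members in the replicates' own top entries was 16.2% for their top 2500 and 52.5% for their top 10000. TATCGA, in 25 promoters of members (31.2%, against 27.7% of all genes), was in 16 with 100 bases before the start (20.0%, against 21.1%). As TATCGATA it was in 9 (11.2%, against 9.36%).

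Leaving out each replicate in turn left 19 members with a peak matched in both others, namely 0 copies and 19 main forms each time (23.8% of members and 32.2% of main forms, against 22.3% to 22.9% of all genes). This step only removes peaks from the IDR list, which was made from all 3 replicates. The copies had no IDR peak to begin with, so their 0 was fixed in advance and adds nothing. The step left 8 to 9 genes in complex I, 1 in complex III, 5 in complex IV, 4 to 5 in complex V and 12 to 14 other pathway genes. For complex I this was 20.0% to 22.5% of its 40 genes, copies included, below all genes in each case. All 8 to 9 were main forms, which number 34 in complex I. Over these alone it was 8 of 34 without replicate 1 or 3 and 9 of 34 without replicate 2, against 22.3% to 22.9% of all genes. These shares are only slightly above that of all genes and are near the background. The mean share of members ranged from 30.6% to 33.8%, and the difference between copies and main forms from -40.0 to -38.3 points. No paired analysis was possible because the series holds 1 group. Unknown depth limits every absent entry: a gene without one may lie below what these libraries detect.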
